A study of Caenorhabditis elegans with 2 samples.

Results

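The ceh genes are the *Caenorhabditis elegans* genes that carry the homeobox gene name. They were taken by name, as the protein-coding genes whose symbol in the Ensembl annotation starts with ceh-, and 63 of 19973 protein-coding genes met that rule. Membership used no measured value, although the set was chosen with earlier results of these data known. RefSeq gives the name ceh-44 to one more gene, which Ensembl calls cone-1. It is not among the 63 and is described separately at the end.

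Homeobox genes encode transcription factors that bind DNA through a homeodomain, and in the worm they are known above all for setting the identity of neurons and of other cell types during embryogenesis. Several families are recognised by the homeodomain and by additional domains, such as the CUT, LIM, POU, PBC and sine oculis families. The protein profiled here, PROS-1, is itself an atypical homeodomain protein of the Prospero family, and its gene carried the name ceh-26 before it was called pros-1.

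The data are ChIP-seq peak lists for eGFP-tagged PROS-1 in late embryos, taken as whole organisms. ChIP-seq recovers and sequences the DNA that a protein occupies. All embryos were of mixed sex and came from strain OP500, which carries the unc-119(tm4063) allele and the transgene wgIs500, labelled as an insertion targeting pros-1. There were 2 biological replicates of 1 group, so no condition was compared, and the labels name whole organisms, so no cell type can be assigned to a peak. Whether an embryonic peak came from many cells or from few cannot be told from these lists. The antibody field names pros-1, while the experiment is described as directed against the eGFP fusion.

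Peak and candidate lists were used, all on the ce11 build. The authors' list of reproducible peaks, thresholded by the irreproducible discovery rate (IDR), held 737 peaks. A pooled list and a list for each replicate held 30000 candidate regions each, background included. The signal value of a region is the authors' score, and no source states its scale. It is therefore compared here only within a list. A rank is a place within its own list, and ranks of matched summits are also set side by side between lists. Within the IDR list the signal value ran from 26.4 to 127.1, and within the pooled list from 5.55 to 127.1. In replicate 1 the highest value was 36.0 and in replicate 2 it was 120.5. No read totals are held in these files, so depth is unknown.

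Each summit, the single position that the authors' list gives for a region, was set against a pair of windows. It lay at the centre of the region, within 1 bp, for 29960 of 30000 pooled candidates and 697 of 737 IDR peaks, and nearly all regions of a list had one width (324 bp in the pooled list). The promoter window covers the sequence from 1000 bp before to 200 bp after the start of any protein-coding transcript of the gene. The domain covers the gene body and 5000 bp before the gene's start. A gene was counted when a summit fell in the window.

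The sequences at 4 of the IDR summits and at the strongest summit just outside that list are given here because the results turn on them. Each is 101 bases of the plus strand of RefSeq's WBcel235 genome, the assembly also called ce11, with the summit at base 51. Capitals mark matches, on either strand, to any of 4 motifs: the Prospero half-site (AAGACG or AAGGCG), the GAGA repeat (GAGAGAG), the GC-box (GGGCGG) and the homeodomain motif (TAATTA).

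ceh-38, chrII:6951530-6951630: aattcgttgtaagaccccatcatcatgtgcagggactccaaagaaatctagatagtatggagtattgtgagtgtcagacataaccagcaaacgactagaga

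ceh-74, chrV:14177753-14177853: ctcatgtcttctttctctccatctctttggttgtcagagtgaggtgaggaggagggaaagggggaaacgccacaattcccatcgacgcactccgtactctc

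ceh-24, chrV:13808636-13808736: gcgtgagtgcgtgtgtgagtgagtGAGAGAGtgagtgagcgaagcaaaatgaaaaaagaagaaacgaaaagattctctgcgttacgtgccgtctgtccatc

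ceh-43, chrIII:4447790-4447890: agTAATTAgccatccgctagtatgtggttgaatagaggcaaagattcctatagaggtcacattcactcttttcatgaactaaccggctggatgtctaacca

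ceh-39 and ceh-21, chrX:1856322-1856422: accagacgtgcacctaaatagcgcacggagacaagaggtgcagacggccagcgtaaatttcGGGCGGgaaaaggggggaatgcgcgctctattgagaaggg

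In the promoter window, IDR summits were found at ceh-38 and ceh-74. That is 2 of 63 genes (3.17%, exact 95% interval 0.387% to 11.0%), and over all protein-coding genes the share was 2.55%. In the domain, IDR summits were found at 5 of 63 genes (7.94%, exact 95% interval 2.63% to 17.6%), namely ceh-5, ceh-24, ceh-38, ceh-43 and ceh-74, against 6.0% of all protein-coding genes. Both shares lie near the share over all genes, and both intervals include it. Per length, the merged ceh domains held 5 IDR summits on 0.515 Mb, or 9.71 per Mb (exact 95% Poisson interval 3.15 to 22.7), and the merged domains of all protein-coding genes held 7.60 per Mb. Counting only summits whose nearest protein-coding start was the ceh gene's own gave 5.82 per Mb, on the other side of that value, which was not restricted in this way. The median domain was 7652 bp long for ceh genes and 7027 bp for all protein-coding genes. These intervals cover the counting of genes and summits only, and no test of the difference was made.

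**Figure D1:**
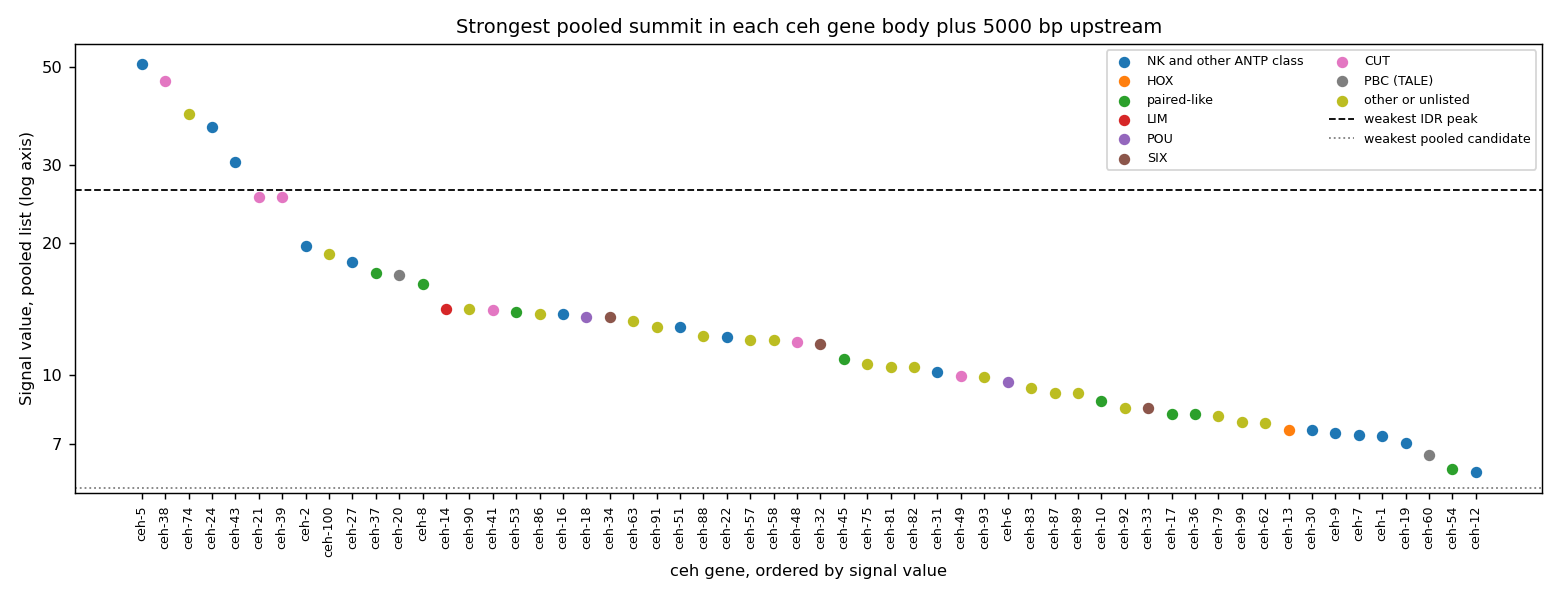
Signal value of the strongest pooled summit in the domain of each ceh gene (vertical log axis), for the 58 genes that have one, coloured by homeodomain family. The dashed line is the weakest IDR peak at 26.4 and the dotted line the weakest pooled candidate at 5.55; 5 genes stand above the dashed line and ceh-21 and ceh-39, which share a summit, stand just under it at 25.4.

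The gene with the clearest promoter peak was ceh-38, which encodes a CUT-family protein of the ONECUT type, a family known in the worm for its part in pan-neuronal gene expression. The ceh-38 peak (II, 6951418 to 6951741) had a signal value of 46.6 and rank 198 in the pooled list. Its summit lay 54 bp after the annotated start of the gene (II, 6951526 to 6955409, plus strand), in an exon, and 39 bp upstream of another of its transcript starts. Replicate 1 held a ceh-38 summit 50 bp away at rank 156 (signal value 14.3), and replicate 2 held one 39 bp away at rank 267 (32.5). Both replicates thus placed it among their strongest regions. The same summit fell in the promoter window of the neighbour malt-1, which encodes a paracaspase homolog. None of the 4 motifs occurred in the sequence printed for ceh-38, and its GC content was 41.6%.

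The ceh-74 peak was carried by replicate 2. It lay 276 bp upstream of ceh-74 (V, 14177641 to 14177964) with a signal value of 39.2 and rank 307, inside an intron of the neighbouring gene cest-2.3. Replicate 2 held a summit 5 bp away at rank 429 (signal value 26.7), and replicate 1 held none within 100 bp. The best ceh-74 candidate of replicate 1 was elsewhere in the domain, at rank 20226. The 101 bases at the ceh-74 summit were 52.5% GC and held none of the 4 motifs.

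The other 3 IDR summits lay outside the promoter windows of the ceh genes they were assigned to. For ceh-24, which encodes an NK-2 type protein known from pharyngeal and vulval muscle and from head neurons, the peak (V, 13808524 to 13808847) had a signal value of 36.6 and rank 366. It was intergenic, 4545 bp upstream of ceh-24, and the nearest protein-coding start was that of swan-1, a WD40 repeat protein gene, at 1449 bp. Replicate 1 ranked the ceh-24 summit 198 (signal value 13.3) and replicate 2 ranked it 558 (23.8), with summits 11 and 3 bp away. A GAGA repeat lies in the printed sequence of ceh-24. Of the 5 IDR summits, those of ceh-24 and ceh-38 were the only ones with a match among the 737 strongest candidates of both replicates.

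The ceh-43 peak lay inside the gene. The ceh-43 gene encodes the worm Distal-less homolog, known from the anterior epidermis and from dopaminergic neurons. Its peak (III, 4447678 to 4448001, signal value 30.5, rank 557) had a summit in an intron, 2103 bp downstream of the start on the minus strand. Replicate 2 ranked it 590 (signal value 23.0) and replicate 1 ranked it 4731 (5.19), with summits 1 bp away or less. A homeodomain motif, TAATTA, lies in the printed sequence of ceh-43. A second ceh-43 candidate lay 1174 bp upstream of the start, with a signal value of 16.7 and rank 2000, and it was matched in replicate 2 (rank 1117) but not in replicate 1.

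The strongest summit assigned to any ceh gene was that of ceh-5, and it belonged to another gene's promoter window. The ceh-5 peak (I, 9722255 to 9722339) had a signal value of 50.8 and rank 146. The region was 85 bp wide with its summit at the centre, so the distances given for it rest on that position. It lay 4872 bp upstream of ceh-5, inside an intron of ocrl-1 and 419 bp upstream of a start of eat-16, which encodes a regulator of G protein signalling. A second pooled region followed directly, with a summit 4669 bp upstream of ceh-5, a signal value of 21.7 and rank 1125. Replicate 2 had its nearest summit at rank 102 (signal value 46.5), 46 bp from the stronger pooled summit. Replicate 1 had 1 summit there, at rank 355 (11.0), which matched the weaker pooled summit at 83 bp and not the stronger. Both replicates thus held a region here, and the match of replicate 1 fell to the weaker of the pooled pair. The 101 bases at the stronger summit were 52.5% GC and included a GAGA repeat.

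**Figure D2:**
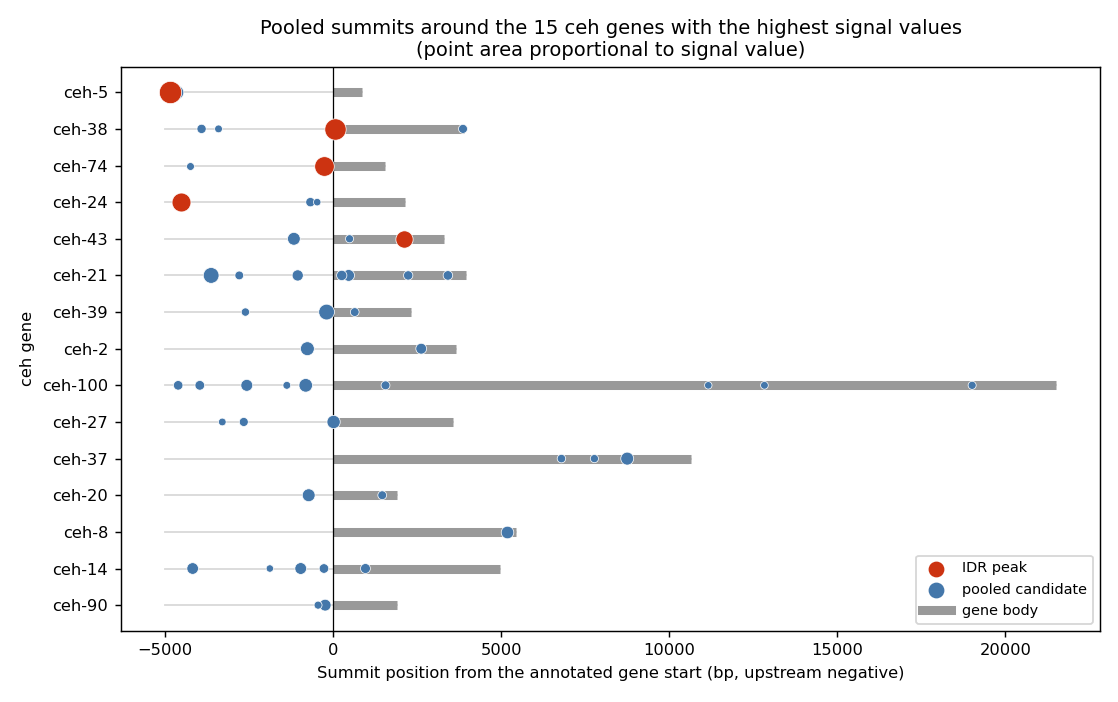
Positions of all pooled summits in the domains of the 15 ceh genes with the highest signal values, in bp from the annotated gene start (upstream negative), with point area proportional to signal value. IDR peaks (red) lie at the start of ceh-38, 276 bp upstream of ceh-74, 4872 bp upstream of ceh-5, 4545 bp upstream of ceh-24, and within ceh-43. Grey bars are gene bodies.

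Just outside the IDR list stood a summit shared by ceh-39 and ceh-21, which encode CUT proteins of the ONECUT type. The ceh-39 gene is known as an X-signal element, one of the genes through which the embryo counts its X chromosomes in sex determination. The candidate (X, 1856210 to 1856533) had a signal value of 25.4 and rank 801, and the IDR list ends at 26.4. It lay 200 bp upstream of ceh-39 and 3636 bp upstream of ceh-21, the next gene of the cluster. Replicate 2 ranked it 439 (signal value 26.5), with a summit 2 bp away, and replicate 1 held no summit within 100 bp. A GC-box lies in its sequence, as printed, and the window was 57.4% GC. On the inner side of the limit the nearest ceh summits were those of ceh-43 (30.5), ceh-24 (36.6) and ceh-74 (39.2). After ceh-39 and ceh-21, the next gene on the outer side was ceh-2 (19.7).

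The next candidates by signal value were at ceh-2, ceh-100, ceh-27, ceh-37, ceh-20, ceh-8, ceh-14 and ceh-90, none of them an IDR peak. Their deposited q-values were 0.0172 at ceh-2, 0.0259 at ceh-100, 0.0351 at ceh-27 and 0.0533 at ceh-37. They were 0.0559 at ceh-20, 0.0859 at ceh-8, 0.161 at ceh-14 and 0.162 at ceh-90. The largest q-value in the IDR list was 0.00341. At ceh-2, the ems/EMX homolog known from pharyngeal motor neurons, the summit (signal value 19.7, rank 1365) was 772 bp upstream and fell inside a tRNA gene, WBGene00022946. Replicate 2 ranked the ceh-2 summit 1083 and replicate 1 did not match it. At ceh-27, an NK-2 type gene, the summit (18.1, rank 1639) was 8 bp from the start. At ceh-20, which encodes the Extradenticle homolog and Hox cofactor, it was 733 bp upstream (16.9, rank 1925), with ranks of 1604 in replicate 1 and 5854 in replicate 2. The summit of ceh-20 and that of ceh-100 (18.9, rank 1488, with ranks of 3734 and 1311 in replicates 1 and 2) were thus the only ones of these 8 matched in both replicates.

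Other candidates lay at alternative starts or at neighbours. At ceh-37, an Otx-type gene known for the AWB olfactory neurons, the summit (17.1, rank 1887) was 157 bp upstream of an internal start and 8746 bp into the gene, and it ranked only 10723 in replicate 2. At ceh-8, a Rax-type gene, the single summit of the domain (16.1, rank 2183) lay in an exon, 5166 bp into a gene of 5444 bp, in the promoter window of col-63. At ceh-14, a LIM homeobox gene known for the AFD thermosensory neurons, the summit (14.2, rank 3213) was 970 bp upstream, and at ceh-90 (14.1, rank 3223) 242 bp upstream. The ceh-14 summit was matched in replicate 2 alone, at rank 1951, and the ceh-90 summit in neither replicate.

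The strongest summits of the remaining 43 genes with a pooled candidate ran from a signal value of 14.1 at ceh-41 (rank 3245), a CUT gene next to ceh-21, down to 6.03 at ceh-12 (rank 26234). The ceh-41 summit lay in a coding exon of ceh-21, 3605 bp upstream of ceh-41. Besides ceh-39 and ceh-21, the pairs ceh-57 and ceh-58 and ceh-81 and ceh-82 each shared their strongest summit, so the 58 genes had 55 distinct ones.

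By family, IDR summits occurred in the domains of 3 of 17 genes of the NK and other ANTP classes, 1 of 6 CUT genes and 1 of 22 genes not placed in a family here, where 6.0% of all protein-coding genes had one. No IDR summit lay in the domain of the 8 paired-like genes, the 3 genes of the sine oculis family, the 3 PBC or 2 POU genes, or of the single LIM gene and the single Hox-type gene. The strongest pooled summits were those of ceh-5 in the NK and other ANTP classes, ceh-38 among CUT genes, ceh-37 among paired-like genes and ceh-20 among PBC genes. The strongest POU summit was at ceh-18, which acts in the gonadal sheath (signal value 13.6), and the strongest summit of the sine oculis family at ceh-34, known from pharyngeal neurons (13.6). At ceh-13, the labial-type Hox gene, the strongest value was only 7.52, at rank 17434. The medians of the strongest signal value per gene were 19.8 for CUT genes, 12.2 for NK and other ANTP genes and 9.82 for paired-like genes. The CUT value rests on 6 genes, 2 of which share a summit, and families of this size were tested neither against each other nor against all genes.

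By chromosome, the X carried 18 ceh genes, more than any other chromosome. Of these, 0 of 18 had an IDR summit in the domain (exact 95% interval 0% to 18.5%). Over all protein-coding genes on the X the share was 8.53%, and on the autosomes 5.60%. On the autosomes 5 of 45 ceh genes had an IDR summit in the domain (11.1%, exact 95% interval 3.71% to 24.1%). The upper end of the interval on the X lies above the share over all X genes. A lower rate of ceh genes on the X was thus not detectable with 18 genes. The strongest X summit, at ceh-39 and ceh-21, was the one that fell just short of the IDR limit.

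Among pooled candidates, which include background, 36 of 63 ceh genes (57.1%, exact 95% interval 44.0% to 69.5%) had a summit in the promoter window, against 41.9% of all protein-coding genes. In the domain 58 of 63 (92.1%) had one, against 84.0%. The interval for the promoter share lies above the share over all genes, and no test was made. In the candidates of replicate 1 the promoter count was 31 of 63 (49.2%) against 40.4%, and in those of replicate 2 it was 29 of 63 (46.0%) against 41.2%. In the domain the counts were 59 of 63 against 87.7% of all genes for replicate 1, and 55 of 63 against 83.6% for replicate 2. In each replicate alone the interval for the promoter count included the share over all genes. The ceh domains held 177 distinct pooled summits on their merged length, 343.6 per Mb (exact 95% Poisson interval 294.9 to 398.2), against 306.2 per Mb over the domains of all protein-coding genes.

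The strongest pooled summit per domain had a median rank of 5392 among the 58 ceh genes with one and of 7797 among all protein-coding genes with one. For promoter windows the medians were 9265 and 11116. At rank 6000 or better, 30 of 63 ceh genes (47.6%) had a domain summit, against 34.9% of all protein-coding genes. At rank 3000 or better the shares were 20.6% and 20.4%. At rank 1500 they were 14.3% and 11.5%, and at rank 12000 they were 65.1% and 55.6%. The gap thus varied with the rank chosen. In the promoter window the shares were 12.7% and 8.24% at rank 3000, and 22.2% and 13.6% at rank 6000. No interval was computed for these shares, and none was tested. Among 38 other homeobox genes, 19 (50%) had a domain summit at rank 6000 or better. The median rank was 5612 among the 37 of them with any domain summit. The domains of these other homeobox genes had a median length of 9873.5 bp, against 7652 bp for ceh genes and 7027 bp for all protein-coding genes. A longer domain can hold more summits, and the domain shares were not corrected for length.

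**Figure D3:**
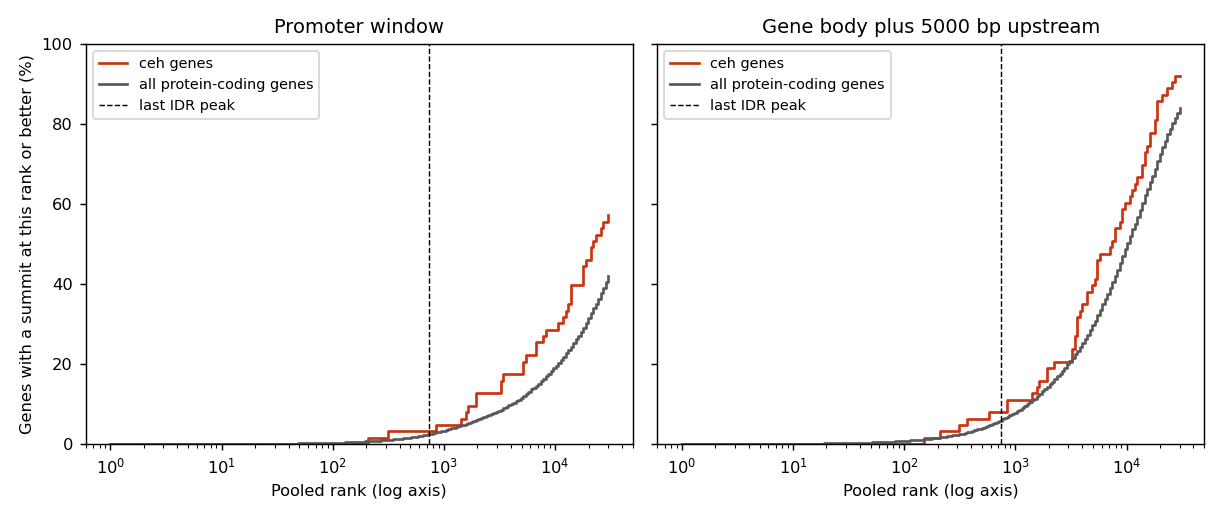
Share of genes (vertical axis, %) with a pooled summit at the given rank or better (horizontal log axis), for the promoter window (left) and the gene body plus 5000 bp upstream (right). The ceh genes (red) reach 57.1% and 92.1% at the end of the list and all protein-coding genes (grey) 41.9% and 84.0%; at the dashed line, the last IDR peak, the shares are 3.17% and 7.94% against 2.55% and 6.0%.

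The domains varied widely. The number of pooled summits per domain had a median of 3, and 12 ceh genes had 5 or more. The number reached 10 at ceh-18, whose domain was 19431 bp long, against a median of 7652 bp for ceh genes. These numbers per domain were not computed over all protein-coding genes. The domain held a pooled summit for 58 of 63 ceh genes (92.1%), against 84.0% of all protein-coding genes. No pooled summit lay in the domains of the other 5 genes: ceh-23, ceh-28, ceh-40, ceh-76 and ceh-84. Of these, ceh-28 is an NK-2 type gene known from the M4 pharyngeal neuron, and ceh-40 encodes a second Extradenticle homolog. Replicate 2 had no candidate in any of these 5 domains. Replicate 1 had one in each, the best at ceh-40 with rank 2703 and a signal value of 6.11. Over all protein-coding genes, 87.7% had a replicate 1 candidate in the domain and 83.6% a replicate 2 candidate.

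Of the strongest summits of the 58 genes, 43 (74.1%) lay upstream of the gene's annotated start. The window itself holds 5000 bp upstream, beside a median gene body of 2652 bp. The ceh gene's own start was the nearest protein-coding start for 32 (55.2%), and 16 (27.6%) lay in the gene's own promoter window. These shares were not computed over all protein-coding genes, so they describe the ceh summits alone. In all, 26 of 55 distinct summits (47.3%) lay in a promoter window of some gene, against 41.6% for the strongest summits of all protein-coding genes. Outside promoter windows, coding exons held 9 of the 58. Among the 177 distinct pooled summits 3 lay within 250 bp of a tRNA, snoRNA, snRNA or rRNA gene, at ceh-2, ceh-39 and ceh-43, and all 3 neighbours were tRNA genes. That share (1.69%) is near that over all pooled summits (1.5%), while over all IDR summits it was 10.9%. None of the 5 ceh IDR summits was that close to such a gene.

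The replicates matched the ceh summits unevenly, and they did so for the summits of all protein-coding genes as well. Of the 55 distinct strongest summits, 11 (20%) had a summit within 100 bp in both replicates, 28 in replicate 2 alone, 9 in replicate 1 alone and 7 in neither. Of the 10225 strongest summits of all protein-coding genes, 2617 (25.6%) were matched in both replicates. Another 4607 were matched in replicate 2 alone, 1624 in replicate 1 alone and 1377 in neither. Replicate 2 thus matched 70.9% of the ceh summits and 70.7% of those of all genes, and replicate 1 matched 36.4% and 41.5%. Among all 737 IDR peaks the share in both was 82.4%. Of the 5 IDR summits of ceh genes, those of ceh-24, ceh-38 and ceh-43 were matched in both. The match in both replicates was lost for most weaker ceh candidates.

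**Figure D4:**
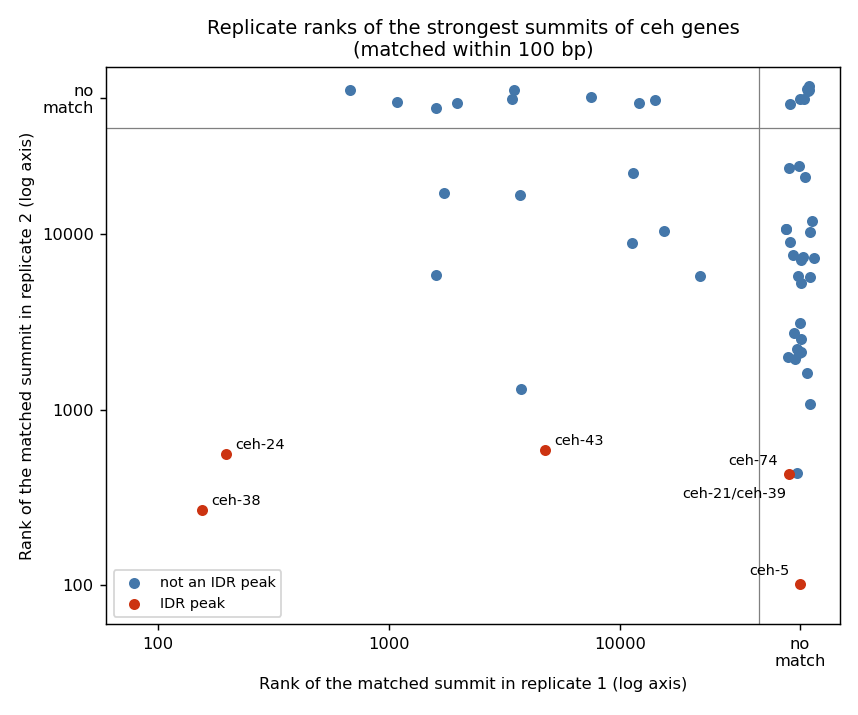
Rank of the matched summit in replicate 1 (horizontal log axis) and in replicate 2 (vertical log axis) for the 55 distinct strongest pooled summits of ceh genes, with unmatched summits spread slightly at the "no match" positions. Only ceh-38 and ceh-24 rank under 737 in both replicates, while ceh-74, ceh-5 and the summit shared by ceh-21 and ceh-39 rank high in replicate 2 and have no match in replicate 1.

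Taking the 737 strongest candidates of each replicate in place of the IDR list gave other genes in part. In replicate 1 the promoter count was 1 of 63, ceh-38, against 2.21% of all protein-coding genes, and the domain count 4 of 63 against 5.83%, made up of ceh-5, ceh-24, ceh-38 and ceh-88. The ceh-88 summit, named after its value was seen, ranked 682 there with a signal value of 9.02, but the pooled summit 6 bp from it ranked only 4851. In replicate 2 the promoter count was 3 of 63, with ceh-39 added to ceh-38 and ceh-74, against 2.37%. The domain count was 7 of 63 against 5.76%, with ceh-21 and ceh-39 added to the 5 genes of the IDR list. The genes found with all of these lists were ceh-5, ceh-24 and ceh-38.

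The 4 motifs were counted at the ceh summits. In 101 bases around the 55 distinct strongest summits, the Prospero half-site occurred at 2 (3.64%), the GAGA repeat at 3 (5.45%), the GC-box at 4 (7.27%) and TAATTA at 2 (3.64%). Over all pooled windows of that length the shares were 7.68%, 4.24%, 3.32% and 3.25%, and over all IDR windows 12.1%, 17.9%, 8.41% and 1.09%. The half-site occurred at none of the 5 ceh IDR summits, the GAGA repeat at those of ceh-5 and ceh-24, and TAATTA at that of ceh-43. GC content was 47.1% ± 5.45 (SD over 5 summits) at the ceh IDR summits, 52.2% ± 6.92 over all IDR summits and 40.9% ± 9.19 over all pooled summits. The shares at the 55 ceh summits rest on 2 to 4 windows for each motif, and their differences from the other sets were not tested.

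Homeobox genes outside the ceh series were compared as a list of 38, among them the Hox genes lin-39, mab-5 and egl-5. No IDR summit lay in the promoter windows of the 38 (exact 95% interval 0% to 9.25%), against 2.55% of all protein-coding genes. In the domain 1 of 38 (2.63%) had one, against 6.0%. Pooled candidates lay in the promoter windows of 20 of 38 (52.6%, exact 95% interval 35.8% to 69.0%) and in the domains of 37 of 38 (97.4%), against 41.9% and 84.0% of all protein-coding genes and 57.1% and 92.1% of ceh genes. The median domain of the 38 genes was 9873.5 bp long, so the domain shares are not compared at equal length. The gene with an IDR summit in the domain was pros-1 itself, with 2 IDR summits there, the stronger at rank 197. The labels name pros-1 as the target of the transgene, and what part the transgene has in these summits was not tested. The ceh and other homeobox lists were not tested against each other, and their intervals overlap in the domain (2.63% to 17.6% for ceh genes, 0.0666% to 13.8% for the others).

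The gene that RefSeq names ceh-44 and Ensembl cone-1 (III, 2530613 to 2546420) had an IDR summit 1799 bp upstream of its start (signal value 27.5, rank 673). That cone-1 summit lay 125 bp upstream of rbc-2 and in the promoter windows of ndua-8 and Y54F10AM.15 as well. It ranked 362 in replicate 1 and 1011 in replicate 2. It was found after the data had been examined.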

How the data were processed

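Peak lists of 2 biological replicates, numbered in the labels, were used on the ce11 build. Per the text files deposited with them, the candidate lists derive from the alignments of each replicate, or of both, together with a further file that is not described there (the labels name a possible control), and the IDR list derives from the candidate lists. The aligner, the peak caller and the IDR threshold are not given in the sources used here. The deposited signal value is a score with no stated scale, and the deposited −log10 q-value was at least 2.47 in the IDR list. The ce10 lists were not used. Read totals are not in the lists, so depth is unknown, and intervals cover counting only.

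Gene models came from Ensembl release 115 (WBcel235), sequence from RefSeq WBcel235. Many worm transcripts are trans-spliced, so an annotated start need not be the site of initiation. Summits were assigned to every window that held them and were matched between lists within 100 bp. Assignment was checked with 200 planted summits per window, all recovered. No test was made. The members, families and lists were chosen with earlier results of these data known. Genes were named if they had an IDR summit in either window, were among the 10 strongest without one, had no candidate, lay beside the IDR limit (3 a side) or led their family, together with pros-1; names given to cone-1, ceh-88 and neighbours followed from their values. Alternatives changed the windows, the peak list, the assignment and the matching distance. Tables were handled in pandas 2.3.3 and numpy 2.4.6 under Python 3.11.15. Exact intervals came from scipy 1.17.1, and figures from matplotlib 3.10.9.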

Additional observations from a re-analysis of the deposited data

How the results depend on the processing

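Of 22 alternatives over 5 results, those with cone-1 included, 17 left the count within 1.5 times its value or the density within its interval. That interval, 3.15 to 22.7 per Mb, is wide and also holds the 7.60 per Mb of all protein-coding genes. A density within it is therefore weak evidence of stability. The density was 8.84 and 11.2 per Mb with 2000 and 10000 bp upstream, and 5.82 with summits nearest to a ceh start only. With 2000 bp upstream in place of 5000 bp the domain count fell to 3 genes (ceh-38, ceh-43 and ceh-74, against 3.96% of all protein-coding genes), and with 10000 bp it was 9 (against 8.96%), with ceh-1, ceh-8, ceh-20 and ceh-76 added. The promoter count ranged from 1 to 3 and the domain count from 4 to 7 when each replicate was left out in turn. Here the 737 strongest candidates of the other replicate stood in for the IDR list, so the threshold changed along with the replicate; the lower values came from replicate 1 alone. The pooled promoter count was 36, and it was 31 with all candidates of replicate 1 and 29 with all those of replicate 2. With a promoter window of 500 bp before to 100 bp after a start it was 26. With 2000 bp before to 500 bp after, it was 48. For these windows the share of all protein-coding genes with a pooled candidate was not computed. These counts therefore do not show whether the ceh share stayed above it. Of the 177 pooled summits in ceh domains, 19 were found in both replicates within 100 bp, 9 within 50 bp and 39 within 200 bp, so the number depends on the matching distance. Within 100 bp that share was 10.7%, against 15.3% of all 30000 pooled summits, and the difference was not tested. With cone-1 counted as a ceh gene, an alternative added after the data were seen, the domain count was 6 and the promoter count 2. With 2 replicates and 63 genes the intervals are wide. No paired analysis was possible because there was 1 group.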
